A study of Mus musculus with 6 samples.

Results

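The genes described here are 32 markers and working parts of retinal bipolar and horizontal cells, out of 55421 genes in the count table. They were chosen by name and matched by symbol, and all 32 were found and had enough fragments to be tested. They were divided by cell class into 13 genes of ON bipolar cells, 13 genes of OFF and cone bipolar cells and 5 genes of horizontal cells, with *Otx2*, a homeobox gene made by all bipolar cells and by photoreceptors, kept apart. The classes are not exclusive. For example, *Cabp5* and *Prdm8* are also made by rod bipolar cells, *Prox1* by some amacrine and bipolar cells and *Calb1* by amacrine and ganglion cells. RNA from whole retina does not show which cells made that of a given member.

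RNA-seq libraries were made from 3 control retinas (*Yapflox/flox*, animals YR612, YR613 and YR615). The other 3 retinas were *Yap* cKO (*Yapflox/flox;RaxCreERT2*, animals YR711, YR713 and YR714). All were taken at 2 months of age, and the study treats each as a replicate of its own. Both groups carried the floxed *Yap* allele and received 4-hydroxytamoxifen (4OH-T) at postnatal days 10 and 14, so that by genotype the Cre transgene alone separated them. *RaxCreERT2* recombines in Müller glia and in the non-pigmented epithelium of the ciliary body, while the RNA came from whole retina. The count table assigned 24261799 to 28641877 fragments to genes in the control retinas and 25972334 to 35067068 in the *Yap* cKO retinas.

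Bipolar cells carry the signal of rods and cones to the inner retina. At the dendrites of ON bipolar cells, glutamate from photoreceptors activates the receptor mGluR6 (encoded by *Grm6*), whose G protein Go closes the cation channel TRPM1, so that the channel opens when light lowers glutamate release. Nyctalopin, LRIT3 and GPR179 hold this complex at the synapse, and RGS7 and RGS11 with *Gnb5* speed the shut-off of Go. OFF bipolar cells instead use ionotropic glutamate receptors, and horizontal cells send inhibitory feedback to photoreceptor terminals. Bipolar genes share homeodomain regulators of the OTX and CRX type, whose preferred letters are TAATCC.

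Levels are given as TPM, a transcript share scaled to the same total in every retina. They divide the fragments of a gene by its exonic length, with SD over 3 retinas. Fold changes and adjusted p-values come from edgeR's quasi-likelihood test with TMM normalization, fitted over 16575 genes with Benjamini-Hochberg adjustment. TPM ratios ran higher than these fold changes, by a median of 0.06 on the log2 scale over all tested genes, and 2 members, *Sebox* and *Otx2*, were higher on the TPM scale and lower by TMM. The label of the groups was checked first. *Yap1* stood at 9.48, 9.52 and 9.83 TPM in control retinas YR612, YR613 and YR615 and at 3.99, 3.76 and 3.94 TPM in *Yap* cKO retinas YR711, YR713 and YR714, a fall of 2.57-fold (log2 fold change -1.36, SE 0.09, edgeR's quasi-likelihood test, adjusted p = 0.000282). Values of single retinas are given below in this same order.

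The highest fold changes were those of *Onecut1* (1.98), which specifies horizontal cells, of *Nyx* (1.65), *Gpr179* (1.57) and *Trpm1* (1.56) of the mGluR6 complex, and of *Prox1* (1.51), while *Gng13*, a G protein subunit of ON bipolar cells, was 1.32-fold lower and *Rgs11* 1.26-fold lower. Of the 32 genes, 23 had a positive log2 fold change and 9 a negative one, where 50.3% of all tested genes were positive, and the median was 0.21 against 0.00 for all tested genes. By class, the median log2 fold change was 0.19 for ON bipolar genes (9 positive, 4 negative), 0.20 for OFF and cone bipolar genes (10 and 3) and 0.54 for horizontal cell genes (4 and 1). The 3 *Yap* cKO retinas lay wholly above the 3 control retinas in TMM-normalised counts for 12 genes (12.3% of all genes) and wholly below for 4 (12.4%). In whole retina, fewer or more cells of a type and less or more RNA per cell cannot be told apart. With 3 retinas against 3, the smallest two-sided p that an exact permutation test of a single gene allows is 0.1, and none is reported. Every member had fragments in every retina, with mean control levels from 13.8 to 608 TPM for ON bipolar genes, from 5.53 to 218 TPM for OFF and cone bipolar genes and from 0.962 to 106 TPM for horizontal cell genes, where *Onecut1* was the lowest.

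None of the 32 genes passed an adjusted p of 0.05 in edgeR's quasi-likelihood test (0 of 32, against 1.49% of all genes tested), and 0 met the study's criteria, which add a fold change of 1.5 and a mean of 5 TPM in 1 group (0.796% of all genes). The study's methods name edgeR but not which of its tests. The study's own list is longer than the 132 genes that met its criteria in the quasi-likelihood test here, while the likelihood ratio test gave 291. Whether the study's list holds any member is not reported here. DESeq2's Wald test and edgeR's likelihood ratio test each gave 4 members by those criteria (1.59% and 1.76% of all genes). The fit without a filter on low counts also gave 4 (1.22%), and length-corrected offsets 1 with either edgeR test (0.935% and 1.48%). Without control YR613 the count was 5 (3.06%) and without *Yap* cKO YR714 it was 4 (2.65%). At an unadjusted p under 0.05 the test gave 20 of 32, with 15 higher in *Yap* cKO against 12% of all genes and 5 lower against 9.42%. Adjusted counts depended on the test, with 0 by limma-voom (1.64% of all genes), with median-ratio size factors (1.48%) and with library size only (1.59%), 7 by DESeq2's Wald test (5.38%), 8 by edgeR's likelihood ratio test (6.18%), 7 by that test with correction for gene length (6.25%) and 11 without a filter on low counts (6.19%). The 8 of the likelihood ratio test were *Rgs7*, *Prox1*, *Nyx*, *Trpm1*, *Onecut1*, *Gpr179* and *Neto1*, with higher values, and *Gng13*, with a lower value. The 7 of DESeq2 lacked *Onecut1*. Single retinas also decided the count, which was 9 without control YR613 (8.84% of all genes) and 6 without *Yap* cKO YR714 (5.89%), and 0 without YR711 (0.923%), YR713 (0.552%), YR612 (0.331%) or YR615 (0.291%). The 9 were *Prox1*, *Nyx*, *Lrit3*, *Trpm1*, *Onecut1*, *Gpr179*, *Onecut2* and *Neto1*, with higher values, and *Gng13*. The 6 were those genes without *Lrit3*, *Onecut1* and *Gng13*.

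**Figure D1:**
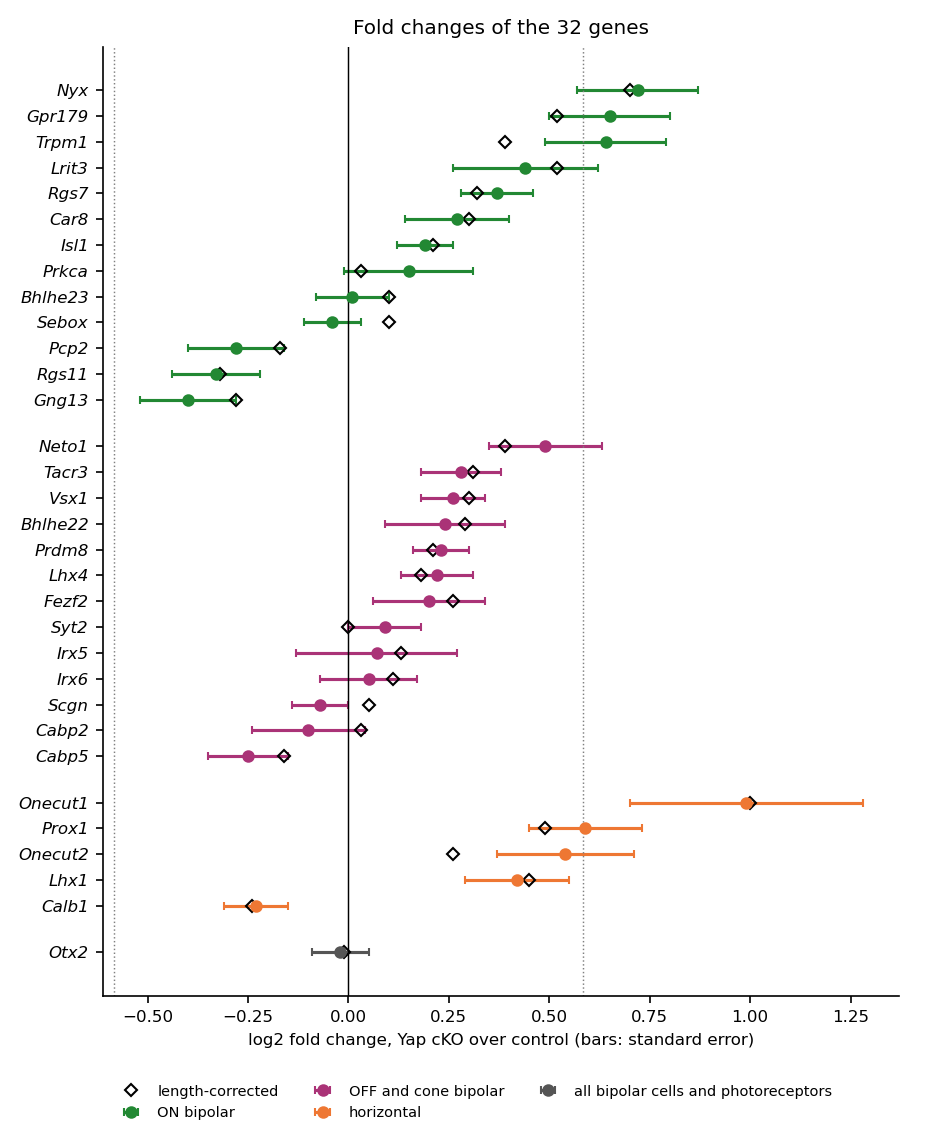
Log2 fold change of each of the 32 genes, *Yap* cKO over control (horizontal axis), by cell class, with filled points and bars for edgeR's estimate and its standard error and open diamonds for the estimate corrected for gene length. Dotted lines mark a fold change of 1.5 in either direction. The points run from -0.40 for *Gng13* to 0.99 for *Onecut1*, and *Nyx*, *Gpr179*, *Trpm1*, *Onecut1* and *Prox1* pass the right dotted line.

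The sequence in front of the genes shows which of them carry the letters that bipolar regulators prefer. Of the 32 genes, 24 were matched to a RefSeq promoter (GRCm38.p6), and the 250 bases before each annotated start were searched on both strands. TAATCC (or GGATTA on the other strand) stood in 5 of these 24, *Cabp2*, *Cabp5*, *Isl1*, *Otx2* and *Trpm1*, against 7.21% of 27025 genes with a promoter. TAATTA, a core of LIM and VSX homeodomains, stood in 2, *Otx2* and *Pcp2* (5.65% of all genes), and CATTCC, the core of TEAD factors through which YAP acts, in 1, *Pcp2* (14.4%). The windows below are shown as 2 pairs, *Trpm1* beside its cascade partner *Gpr179*, which had a like fold change but lacks the letters, and *Isl1* beside *Cabp5*, which hold the letters and had opposite signs. Capitals mark TAATCC or GGATTA, each sequence runs 5′ to 3′ on the strand of its gene, and the windows are chr7:64153585-64153834 (plus strand), chr11:97352357-97352606 (minus), chr13:116309690-116309938 (minus) and chr7:13397905-13398131 (plus). All 250 bases were searched. Bases that the count table's annotation places inside the gene are not printed. Hence 249 bases of *Isl1* and 227 of *Cabp5* are shown and the printed *Cabp5* window stops short of the RefSeq start.
Trpm1: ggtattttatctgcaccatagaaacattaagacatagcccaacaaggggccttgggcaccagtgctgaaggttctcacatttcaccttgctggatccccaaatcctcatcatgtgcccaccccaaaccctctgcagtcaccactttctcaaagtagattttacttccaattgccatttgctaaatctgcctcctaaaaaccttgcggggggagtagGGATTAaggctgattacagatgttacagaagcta
Gpr179: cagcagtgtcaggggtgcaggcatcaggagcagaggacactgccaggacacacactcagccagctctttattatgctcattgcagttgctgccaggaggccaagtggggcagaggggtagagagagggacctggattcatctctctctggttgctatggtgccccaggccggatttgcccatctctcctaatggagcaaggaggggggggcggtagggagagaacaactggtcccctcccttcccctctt
Isl1: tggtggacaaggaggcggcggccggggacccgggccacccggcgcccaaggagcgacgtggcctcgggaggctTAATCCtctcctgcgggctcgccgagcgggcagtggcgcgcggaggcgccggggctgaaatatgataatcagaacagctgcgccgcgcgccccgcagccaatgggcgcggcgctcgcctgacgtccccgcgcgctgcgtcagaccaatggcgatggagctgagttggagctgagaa
Cabp5: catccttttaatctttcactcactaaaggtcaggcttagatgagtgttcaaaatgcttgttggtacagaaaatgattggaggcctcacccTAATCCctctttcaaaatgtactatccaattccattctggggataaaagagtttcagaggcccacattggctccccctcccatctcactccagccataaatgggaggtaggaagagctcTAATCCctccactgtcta
In *Trpm1* the letters begin 34 bases before the RefSeq start, in *Isl1* 177 bases before it and in *Cabp5* 160 and 41 bases before it. A match is only a run of letters, so that genes with it (*Trpm1*, log2 fold change 0.64, and *Cabp5*, -0.25) and without it (*Gpr179*, 0.65) are set side by side as a description.

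The ON bipolar genes with the largest fold changes belonged to the mGluR6 complex. *Nyx* (chrX:13466110-13489313), which encodes nyctalopin, stood at 10.8, 16.8 and 13.9 TPM in control retinas and at 24.5, 27.0 and 19.5 TPM in *Yap* cKO retinas. Every *Yap* cKO retina exceeded the highest control, YR613, and the fold change of 1.65 (log2 0.72, SE 0.15) had an adjusted p of 0.0532 in edgeR's quasi-likelihood test. *Trpm1* (chr7:64153835-64269775), the transduction channel, stood at 40.8, 50.5 and 34.7 TPM in control retinas and 80.1, 70.4 and 53.6 TPM in those of *Yap* cKO mice. The groups did not overlap, but *Yap* cKO YR714 lay close above control YR613, and the fold change was 1.56 (log2 0.64, SE 0.15, adjusted p = 0.0772). *Gpr179* (chr11:97332109-97352077), the orphan receptor that anchors RGS proteins, stood at 40.3, 49.7 and 31.9 TPM in control retinas and 71.4, 72.5 and 54.7 TPM in those of *Yap* cKO mice, with the same order of retinas at the border and a fold change of 1.57 (log2 0.65, SE 0.15, adjusted p = 0.0741). With correction for gene length, the log2 fold changes were 0.70 for *Nyx*, 0.52 for *Gpr179* and 0.39 for *Trpm1*. The last 2 lie under a fold change of 1.5. Adjusted p-values in edgeR's quasi-likelihood test were then 0.0255, 0.0391 and 0.0587.

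*Lrit3*, a leucine-rich repeat gene whose protein is needed for nyctalopin and TRPM1 at this synapse, stood at 49.9, 76.9 and 46.1 TPM in control retinas and 87.8, 91.2 and 64.4 TPM in those of *Yap* cKO mice. Here the groups overlapped, since control YR613 exceeded *Yap* cKO YR714, and the log2 fold change was 0.44 (SE 0.18, adjusted p = 0.206), and 0.68 (adjusted p = 0.0205) without control YR613. The regulators of Go did not share a direction. *Rgs7* stood at 23.5, 25.9 and 29.7 TPM in control retinas and 34.8, 36.7 and 35.1 TPM in those of *Yap* cKO mice, wholly above, with a log2 fold change of 0.37 (SE 0.09, adjusted p = 0.0805). Its paralog *Rgs11* stood at 27.7, 30.8 and 32.1 TPM against 29.0, 22.1 and 24 TPM, a log2 fold change of -0.33 (SE 0.11, adjusted p = 0.137), with *Yap* cKO YR711 inside the control range on the TPM scale, though the groups did not overlap in TMM-normalised counts. Whether the 2 fold changes differ from each other was not tested.

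*Gng13*, the γ subunit that pairs with *Gnb3* in ON bipolar cells, was the most abundant member and the one with the lowest fold change. It stood at 652, 553 and 619 TPM in control retinas and 525, 410 and 504 TPM in those of *Yap* cKO mice, each of the latter below the lowest control, YR613. The log2 fold change was -0.40 (SE 0.12, adjusted p = 0.112 by the quasi-likelihood test and 0.0419 by the likelihood ratio test of edgeR). *Pcp2*, a modulator of Go found in rod bipolar and Purkinje cells, stood at 268 ± 27.3 TPM in control retinas and 230 ± 27.2 TPM in those of *Yap* cKO mice (SD, n = 3), with overlapping groups and a log2 fold change of -0.28. The remaining ON genes had an adjusted p of 0.185 or more in edgeR's quasi-likelihood test. *Prkca*, the kinase used to stain rod bipolar cells, stood at 134, 180 and 133 TPM against 220, 157 and 137 TPM. Only *Yap* cKO YR711 stood above all controls, and the log2 fold change of 0.15 turned to -0.07 without that retina. *Isl1*, a LIM homeobox gene of ON bipolar cells, stood at 55.7 ± 0.373 and 66.2 ± 3.72 TPM without overlap (log2 fold change 0.19, adjusted p = 0.185). *Bhlhe23*, a bHLH factor of rod bipolar cells with 5.71% of its exon bases in another gene of its strand, stood at 52.2 ± 0.978 and 54.7 ± 3.81 TPM, the carbonic anhydrase-related gene *Car8* at 95.4 ± 13.3 and 119 ± 22.3 TPM, and the homeobox gene *Sebox* at 187 ± 6.14 and 189 ± 11.6 TPM, all with overlapping groups.

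A list of 14 genes outside the members held other genes of the cascade and of the synapse at ON bipolar dendrites. Which cells made their RNA in whole retina was not tested. The list gave 1 called gene in edgeR's quasi-likelihood test (1.49% of all genes), 1 by limma-voom (1.64%), 3 by DESeq2 (5.38%) and 3 by edgeR's likelihood ratio test (6.18%). *Grm6*, the receptor at the head of the pathway, stood at 56.0, 56.9 and 51.6 TPM in control retinas and 77.3, 80.3 and 77.4 TPM in those of *Yap* cKO mice. Its retinas were tight within each group and far apart between them (54.9 ± 2.83 against 78.3 ± 1.67 TPM), and it rose 1.37-fold (log2 0.46, SE 0.08, adjusted p = 0.0249), under the study's minimum of 1.5. The call held without control YR613 (0.0182) or *Yap* cKO YR714 (0.0254) and was lost without any of the other retinas, with an adjusted p of 0.0539 without YR711, 0.0785 without YR612, 0.130 without YR713 and 0.131 without YR615. *Elfn2* was also called without YR613 or YR714, and *Lrit2* without YR613. *Elfn2*, a synaptic adhesion gene with the second largest fold change of the list, stood at 34.4, 37.6 and 33.5 TPM against 49.0, 47.7 and 41.5 TPM, without overlap (log2 0.33, SE 0.08, adjusted p = 0.0810). *Gnb3*, the β subunit that pairs with *Gng13* and was picked after its values were seen, stood at 490 ± 7.31 against 426 ± 41.6 TPM (log2 -0.26, adjusted p = 0.135). Over the 14 genes the median log2 fold change was 0.10, and 0.01 with correction for gene length. With that correction the quasi-likelihood test called 2 of them (2.76% of all genes). These were *Grm6* (log2 0.42, adjusted p = 0.0128) and *Lrit2* (log2 0.37, adjusted p = 0.0313).

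**Figure D2:**
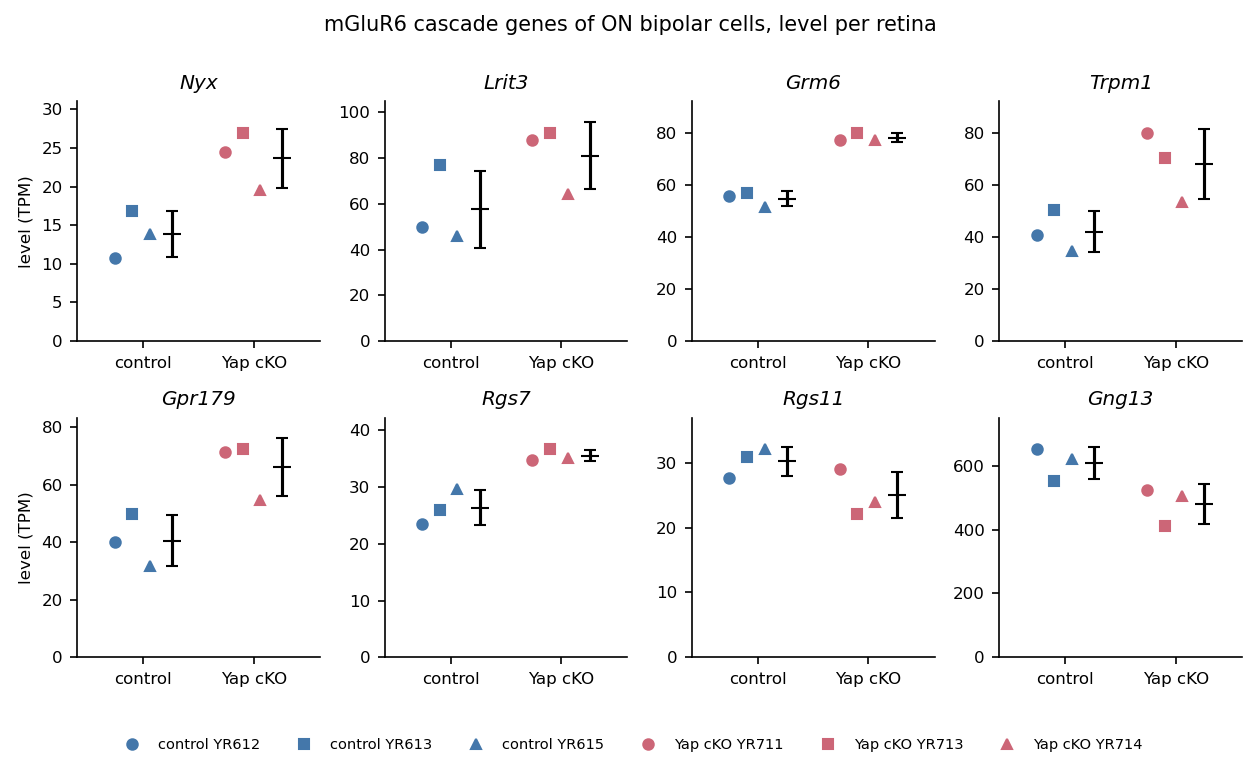
Level in TPM (vertical axes, from 0) of 8 mGluR6 cascade genes in each retina, with 1 symbol per animal, and mean and SD of each group at the right of its points. *Nyx*, *Grm6*, *Trpm1*, *Gpr179* and *Rgs7* have every *Yap* cKO retina above every control, *Gng13* has every *Yap* cKO retina below, and the groups of *Lrit3* and *Rgs11* overlap.

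Among OFF and cone bipolar genes, 5 of 13 were higher at an unadjusted p under 0.05 (12% of all genes) and 1 was lower (9.42% of all genes). Adjusted p-values in edgeR's quasi-likelihood test were 0.111 or more. *Vsx1*, a homeobox gene of cone bipolar cells, stood at 34.6, 35.9 and 35.3 TPM in control retinas and 47.0, 44.3 and 41.0 TPM in those of *Yap* cKO mice. The controls were tight (35.3 ± 0.664 TPM, SD, n = 3), all *Yap* cKO retinas lay above, and the log2 fold change was 0.26 (SE 0.08, adjusted p = 0.111). *Prdm8*, a transcriptional repressor gene of bipolar cells, had a similar form with 45.3 ± 0.145 against 55.2 ± 1.14 TPM (log2 0.23, SE 0.07, adjusted p = 0.131). *Tacr3*, the neurokinin receptor gene of OFF bipolar cells, stood at 26.8, 32.1 and 34.1 TPM against 43.6, 37.3 and 36.5 TPM, with a narrow gap between the groups (log2 0.28, SE 0.10, adjusted p = 0.170). *Neto1*, an auxiliary subunit gene of glutamate receptors, had the largest fold change of the class and a low level, with 6.97, 9.80 and 9.13 TPM against 15.1, 11.7 and 11 TPM (log2 0.49, SE 0.14). Its groups did not overlap, and its adjusted p was 0.112 by the quasi-likelihood test and 0.0371 by the likelihood ratio test of edgeR.

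*Scgn*, which encodes secretagogin and was the most abundant of the class, stood at 216, 212 and 226 TPM against 221, 209 and 219 TPM, and the groups overlapped (log2 -0.07, adjusted p = 0.607). *Cabp5* stood at 189 ± 4.34 and 165 ± 21.9 TPM (log2 -0.25, SE 0.10, adjusted p = 0.178), with *Yap* cKO YR711 at 189 TPM inside the control range and YR713 and YR714 at 147 and 158 TPM below it, though in TMM-normalised counts all 3 lay below the controls. Its paralog *Cabp2* stood at 32.1 ± 1.7 and 31.1 ± 4.41 TPM, with overlapping groups (log2 -0.10, adjusted p = 0.690). With correction for gene length the signs turned for *Scgn* (0.05) and *Cabp2* (0.03).

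The remaining transcription factors of the class overlapped between the groups, with *Bhlhe22* at 42.3 ± 9.07 and 52.1 ± 6.74 TPM, *Irx5* at 5.53 ± 1.02 and 6.06 ± 1.36 TPM, *Irx6* at 25.2 ± 2.89 and 27.3 ± 2.29 TPM, *Fezf2* at 6.92 ± 0.715 and 8.26 ± 0.919 TPM and *Lhx4* at 30.6 ± 3.60 and 37.1 ± 3.39 TPM in control and *Yap* cKO retinas. Among these, *Lhx4* had an unadjusted p under 0.05 (adjusted p = 0.219). *Syt2*, a synaptic vesicle calcium sensor, stood at 25.8 ± 1.13 and 28.6 ± 3.14 TPM. *Otx2* stood at 189, 195 and 190 TPM in control retinas and 200, 205 and 185 TPM in those of *Yap* cKO mice, so that *Yap* cKO YR714 was the lowest of the 6 (log2 -0.02, SE 0.07, adjusted p = 0.898). Of its exon bases, 3.98% are shared with a gene on the same strand, where fragments are not counted.

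**Figure D3:**
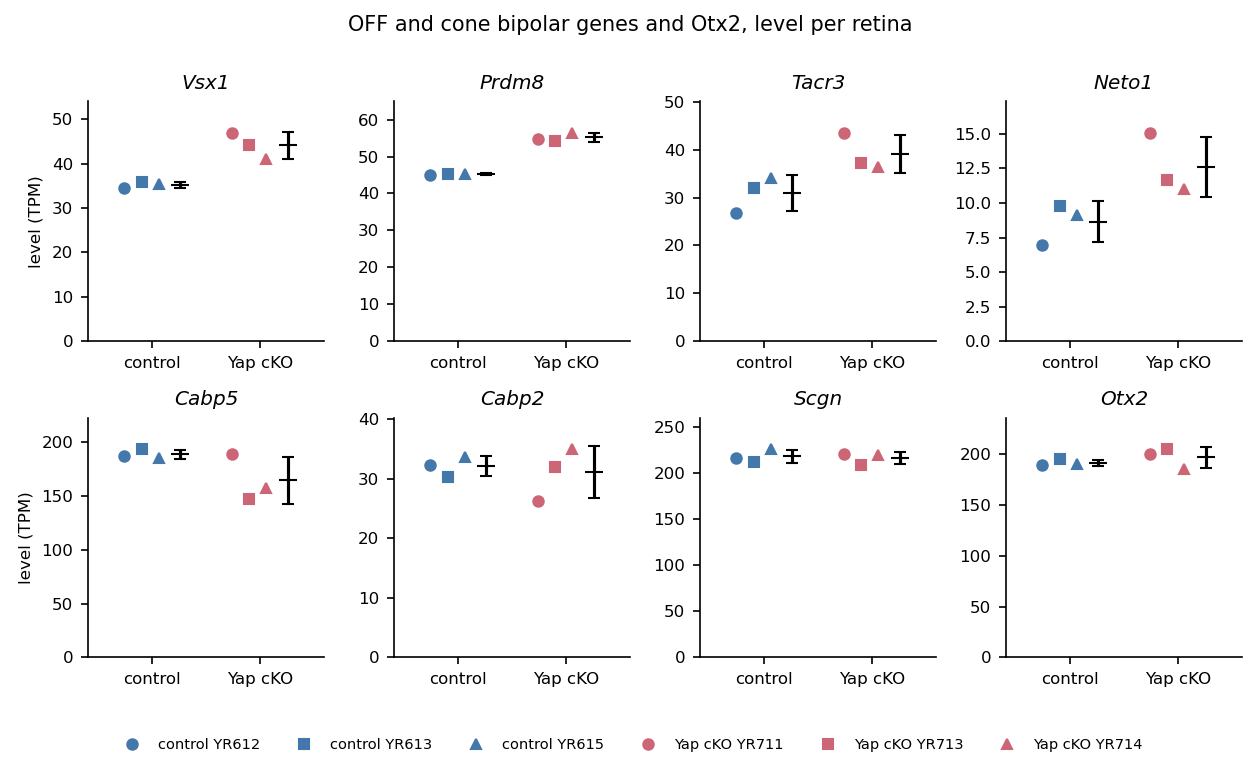
Level in TPM (vertical axes, from 0) of 7 OFF and cone bipolar genes and *Otx2* in each retina, with 1 symbol per animal, and mean and SD of each group at the right of its points. *Vsx1*, *Prdm8*, *Tacr3* and *Neto1* have every *Yap* cKO retina above every control, while *Cabp5*, *Cabp2*, *Scgn* and *Otx2* overlap.

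In a list of 20 further bipolar type markers, 9 were higher and 1 was lower at an unadjusted p under 0.05 (12% and 9.42% of all genes), and edgeR's quasi-likelihood test called 1 (1.49% of all genes). The likelihood ratio test called 4 higher and 1 lower (3.36% and 2.82% of all genes), DESeq2 5 higher and 1 lower (3.15% and 2.23%), and limma-voom 1 (1.64%). *Chrm2*, a muscarinic receptor gene of OFF bipolar and amacrine cells, stood at 6.84, 11.5 and 9.35 TPM against 15.9, 14.9 and 14 TPM (log2 0.64, SE 0.15, adjusted p = 0.0698, and 0.0432 with correction for gene length), without overlap. *Erbb4*, a neuregulin receptor gene, stood at 2.37, 4.85 and 3.42 TPM against 7.45, 5.76 and 4.49 TPM, where control YR613 exceeded *Yap* cKO YR714 (log2 0.68, SE 0.23, adjusted p = 0.154). The called gene was *Col11a1*, a fibrillar collagen gene that marks a bipolar type and is also made outside neurons, which fell from 0.761, 0.893 and 0.807 TPM to 0.319, 0.442 and 0.390 TPM. Its groups lay apart at a level under 1 TPM (64, 78 and 79 fragments against 26, 49 and 34; log2 -1.14, SE 0.18, adjusted p = 0.0221). The call was lost without YR713 (0.0578), YR612 (0.0843) or YR615 (0.102). In the whole list, the test called 5 without control YR613 (8.84% of all genes, with *Chrm2*, *Erbb4*, *Pcdh17* and *Pcdh10* higher and *Col11a1* lower). It called 4 without *Yap* cKO YR714 (5.89%, the same genes without *Erbb4*). With correction for gene length the quasi-likelihood test called 2 higher and 1 lower (1.14% and 1.62% of all genes). The higher ones were *Chrm2* and *Nnat* (log2 0.61, adjusted p = 0.0151), and the lower one was *Col11a1*.

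Horizontal cell genes were the class with the highest median. *Onecut1* (chr9:74861921-74891781), a homeobox gene needed to form horizontal cells, stood at 0.663, 1.53 and 0.696 TPM in control retinas and 2.21, 2.04 and 1.67 TPM in those of *Yap* cKO mice, from 18, 43 and 22 against 58, 73 and 47 fragments. The groups did not overlap, but control YR613 stood at more than the level of the other 2 controls together and just under *Yap* cKO YR714. The fold change of 1.98 was the largest of the 32 genes and had the largest standard error (log2 0.99, SE 0.29, adjusted p = 0.122). Without control YR613 its log2 fold change was 1.45 (adjusted p = 0.0118), and without each of the other retinas it was 0.79 or more with an adjusted p from 0.0669 to 0.377. Of its exon bases, 52.8% are shared with a second gene on the same strand, *Gm20649*, where fragments are not counted, so that its level is understated in every retina.

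*Prox1* (chr1:190118035-190170714), a homeobox gene of horizontal cells and of some amacrine and bipolar cells, stood at 55.6, 79.8 and 57.8 TPM in control retinas and 115, 103 and 84.5 TPM in those of *Yap* cKO mice. Again every *Yap* cKO retina exceeded control YR613, the highest control, and the fold change was 1.51 (log2 0.59, SE 0.14, adjusted p = 0.0726 by edgeR's quasi-likelihood test, 0.0265 with correction for gene length). *Onecut2* stood at 1.40, 2.13 and 1.62 TPM against 2.90, 2.83 and 2.04 TPM, with control YR613 above *Yap* cKO YR714 (log2 0.54, SE 0.17, adjusted p = 0.134). This gene has the longest exonic length of the 32, 16234 bases, and its log2 fold change was 0.26 with correction for length. *Lhx1*, which places horizontal cells in their layer, stood at 6.37 ± 1.02 and 8.90 ± 0.921 TPM without overlap (log2 0.42, SE 0.13, adjusted p = 0.130). *Calb1*, the calbindin gene and the most abundant of the class, had the opposite sign, with 98.6, 107 and 113 TPM in control retinas and 96.9, 89.8 and 97.0 TPM in those of *Yap* cKO mice (log2 -0.23, SE 0.08, adjusted p = 0.153). The groups of *Calb1* were separated only by the gap between control YR612 and *Yap* cKO YR714.

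**Figure D4:**
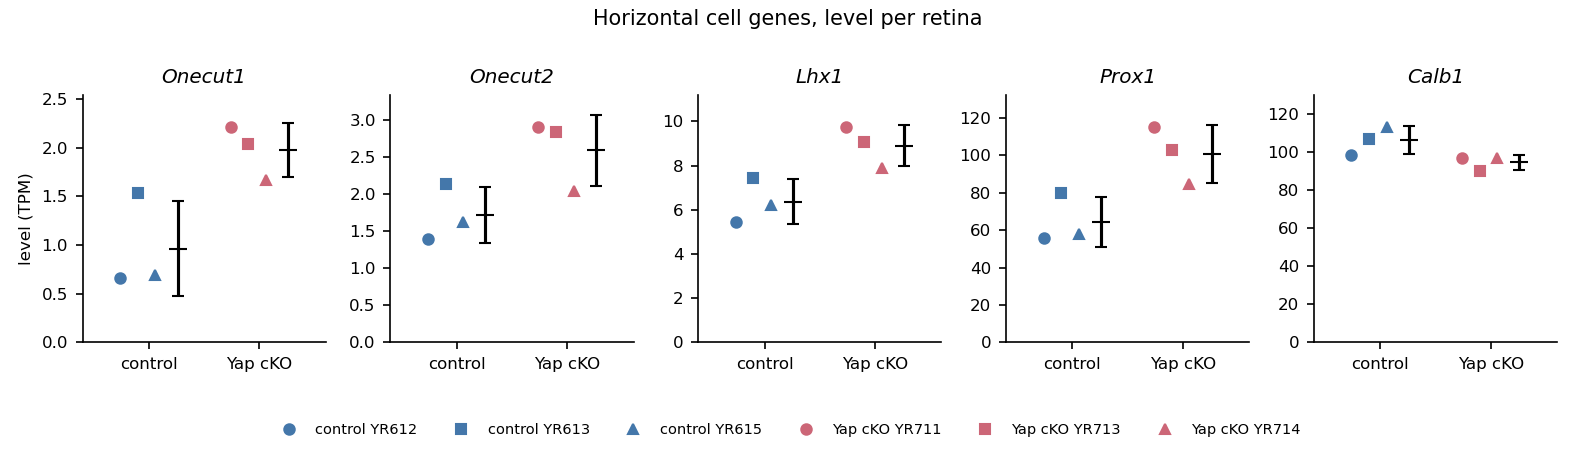
Level in TPM (vertical axes, from 0) of the 5 horizontal cell genes in each retina, with 1 symbol per animal, and mean and SD of each group at the right of its points. *Onecut1*, *Lhx1* and *Prox1* have every *Yap* cKO retina above every control, *Onecut2* overlaps, and *Calb1* has every *Yap* cKO retina below; control YR613 is the highest control in the first 4 panels and *Yap* cKO YR714 the lowest *Yap* cKO retina in them.

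Of 12 other genes known from horizontal cells, 11 were tested and 0 were called by edgeR's quasi-likelihood test (1.49% of all genes), with 5 higher and 1 lower at an unadjusted p under 0.05 (12% and 9.42% of all genes). The remaining gene, *Ptf1a*, which acts in development, had at most 2 fragments in a retina. By DESeq2, limma-voom and edgeR's likelihood ratio test the count was also 0. The quasi-likelihood test called *Megf10* and *Tfap2b* without control YR613 (8.84% of all genes) and *Tfap2b* without *Yap* cKO YR714 (5.89%), all higher. *Gja10*, a connexin gene of horizontal cells, stood at 4.15, 4.67 and 4.41 TPM against 7.70, 6.72 and 5.02 TPM, without overlap (log2 0.49, SE 0.18, adjusted p = 0.161). *Onecut3* stood at 3.81, 3.54 and 4.60 TPM against 5.67, 4.74 and 6.50 TPM (log2 0.44, SE 0.17, adjusted p = 0.184). On the TPM scale the lowest *Yap* cKO retina, YR713, lay just above the highest control, YR615, but in TMM-normalised counts the groups overlapped. The median of the 11 was 0.11. The list is not particular to horizontal cells. *Slc32a1*, *Tfap2a* and *Tfap2b* also stand in the amacrine list below, and *Nefl* and *Nefm* in the ganglion cell list, so that *Tfap2b* is counted in both places.

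Within a group, retinas were not alike for these genes. The median of the horizontal cell genes, relative to each gene's mean over the 6 retinas on the log2 scale, was -0.44, 0.02 and -0.34 in control and 0.43, 0.33 and 0.08 in *Yap* cKO retinas, so that control YR613 stood nearer to *Yap* cKO YR714 than to the other controls. For ON bipolar genes it was -0.16, -0.06 and -0.08 against 0.17, -0.01 and 0.02, with *Yap* cKO YR711 apart from the other retinas. For OFF and cone bipolar genes it was -0.10, -0.10 and 0.06 against 0.08, 0.06 and 0.09, with control YR615 level with *Yap* cKO YR713. Without *Yap* cKO YR711 the median log2 fold change of ON bipolar genes was 0.11, while it was 0.27 without *Yap* cKO YR714 and 0.28 without control YR613. That of OFF and cone bipolar genes was 0.13 without control YR612 and 0.12 without YR613.

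Gene length moved with these differences. Among the 32 genes, exonic length and log2 fold change had a Spearman's rank correlation of 0.614, and among all 16575 tested genes 0.391, a description across genes that share 6 libraries. The 15 members that were higher at an unadjusted p under 0.05 had a median exonic length of 5183 bases (2739 to 16234), the 5 that were lower 2526 bases (773 to 4846) and the other 12 members 3235 bases. Over all genes, the median log2 fold change went from -0.165 in the tenth of shortest genes to 0.213 in the tenth of longest. In single retinas, the rank correlation between length and relative expression over all genes was -0.413 in control YR612 and -0.405 in YR615 but 0.172 in YR613, and 0.396 in *Yap* cKO YR711 and 0.385 in YR713 but -0.151 in YR714. With offsets corrected for length in each retina, 3 members passed the adjusted threshold in edgeR's quasi-likelihood test, all higher (*Nyx*, *Gpr179* and *Prox1*, against 2.76% of all genes), and the class medians were 0.21 for ON bipolar, 0.18 for OFF and cone bipolar and 0.45 for horizontal cell genes. The members' rank correlation with length was then 0.380.

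**Figure D5:**
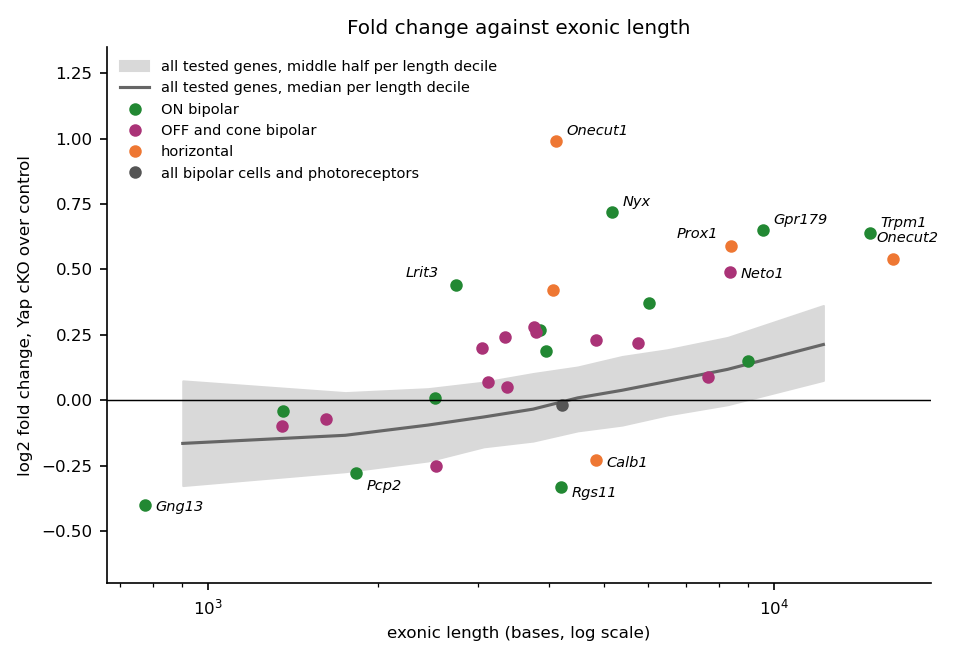
Log2 fold change, *Yap* cKO over control (vertical axis), against exonic length in bases (horizontal axis, log scale), with 1 point per member coloured by cell class and the median and the quartiles of all tested genes per length decile in grey. Medians of all genes climb from -0.165 to 0.213, *Onecut1* and *Nyx* lie farthest above the grey band, and *Trpm1* and *Onecut2* lie beyond its right end.

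Markers of other cells in the retina were measured beside these genes. For the counts that follow, 1.49% of all genes were called by edgeR's quasi-likelihood test, and 12% were higher and 9.42% lower at an unadjusted p under 0.05. Of 12 rod markers, 0 were called in edgeR's quasi-likelihood test and 0 had an unadjusted p under 0.05 (also 0 by DESeq2, limma-voom and edgeR's likelihood ratio test), with a median log2 fold change of -0.06. The 9 cone markers had a median of 0.04 (3 higher and 0 lower at an unadjusted p under 0.05), the 11 ganglion cell markers 0.01 (0 and 0) and the 11 Müller glia markers -0.21 (1 and 5), with 0 called in each list by the quasi-likelihood test. DESeq2 called 1 cone marker and 1 Müller glia marker (5.38% of all genes), and edgeR's likelihood ratio test (6.18%) and limma-voom (1.64%) 1 Müller glia marker each. Without control YR613 (8.84% of all genes) the quasi-likelihood test called 1 cone marker (*Thrb*), 4 Müller glia markers (*Kcnj10* higher, *Rlbp1*, *Apoe* and *Clu* lower) and 3 amacrine markers (*Gad2*, *Tfap2b* and *Chat*, all higher). Without *Yap* cKO YR714 (5.89%) it called *Rlbp1*, *Apoe*, *Tfap2b* and *Chat*. No rod, cone, ganglion cell or Müller glia marker had a mean under 1 TPM in control retinas. For amacrine cells, which share *Prox1*, *Calb1* and several bipolar genes, 10 of 11 markers were positive, 5 of them at an unadjusted p under 0.05, and 0 were called by the quasi-likelihood test (1 by DESeq2 and 1 by the likelihood ratio test). Their median was 0.14 and their sums were 1990, 2000 and 2190 against 2150, 2070 and 2190 TPM. The most abundant of these was *Calb2*, at 1230 and 1170 TPM.

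For pigment and ciliary epithelium, cells at the border of the dissection, 0.989% of all genes is the share called lower by the quasi-likelihood test, 2.82% by the likelihood ratio test, 2.23% by DESeq2 and 1.12% by limma-voom. All 9 pigment epithelium markers were lower, 3 of them called by the likelihood ratio test, 2 by DESeq2, 1 by limma-voom and 1 by the quasi-likelihood test (*Pmel*, adjusted p = 0.0347 by edgeR's quasi-likelihood test, lost without YR711, YR612 or YR615 at 0.0717, 0.16 and 0.157). The quasi-likelihood test called 6 of them without *Yap* cKO YR714 (2.75% of all genes were then called lower). It called 2 each without YR713 (0.48%) or YR613 (2.74%). Their sums were 698, 758 and 728 TPM in control retinas and 211, 395 and 717 TPM in those of *Yap* cKO mice, where *Ttr* was the most abundant (467 and 296 TPM). All 6 tested ciliary epithelium markers were lower, 4 were called by the likelihood ratio test, 4 by DESeq2, 3 by limma-voom and 3 by the quasi-likelihood test (*Optc*, *Ltbp2* and *Slc26a4*). Their sums were 128, 115 and 121 against 43.2, 64.0 and 45.9 TPM, where *Optc* was the most abundant (48.0 and 4.56 TPM). *Msx1*, the remaining marker of that list, was under 1 TPM. The part that these other cells and the length trend had in the values of bipolar and horizontal cell genes was not tested.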

How the data were processed

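Gene counts came from whole retinas of 3 control and 3 *Yap* cKO mice, grouped by the titles and genotypes of the labels, with the age from the study's methods. Stranded libraries of polyadenylated RNA, read from both ends, were mapped by the authors to GRCm38 with STAR 2.7.3a, and featureCounts 1.6.2 gave the exonic fragments of each gene (strand setting 2, annotation release 98 per the file header), so that fragments in exons shared by genes were not counted. The deposited values are raw counts, with the exonic length of each gene beside them. No batch, litter or sex is named in the labels.

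Counts were filtered with filterByExpr by group and tested with edgeR 4.0.16 (R 4.3.3) by the quasi-likelihood test after TMM normalization (factors 0.986 to 1.02, common dispersion 0.0126), without covariates, over 16575 genes. The study's criteria asked for 0.05 or less in adjusted p, 1.5 or more in fold change and 5 TPM or more in the mean of 1 group. TPM was computed from counts and exonic length. Each standard error is the size of the log2 fold change over the square root of its F value, and relative levels from log2 CPM with a prior count of 2. Alternatives were median-ratio size factors, library size only, DESeq2 1.42.0, the likelihood ratio test, limma 3.58.1 (voom), no filter, offsets corrected for exonic length by a loess curve (span 0.3) in each retina, and the removal of single retinas. The steps were tested on simulated data.

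The members, classes and lists were chosen with earlier results of these data known. Values of single retinas are given for *Onecut1*, *Otx2*, members meeting the study's criteria under any alternative, the 3 largest fold changes and the highest level of each class, and, of the cascade, bipolar type and other horizontal cell lists, called genes and the 2 largest fold changes with a mean of at least 1 TPM. The rule covered every other list, but markers of other cell types are given as list values. Among these, a gene is named where the quasi-likelihood test with TMM called it with no retina left out, or where it stood under 1 TPM. Some genes called with a retina left out, and the most abundant gene of some lists, are also named. Not every marker called in some fit is named. *Rgs7*, *Rgs11*, *Prkca* and *Cabp5* were added after their values were seen.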

Additional observations from a re-analysis of the deposited data

How the results depend on the processing

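The count of members with an adjusted p of at most 0.05, 0 in the quasi-likelihood test with TMM, was 7 by DESeq2's Wald test, 3 with length-corrected offsets, 8 by the likelihood ratio test, 7 by that test with length-corrected offsets and 11 without a filter on low counts (6.19% of the 30129 genes then tested). It was 0 with the other size factors and with limma-voom, and from 0 to 9 when single retinas were left out. By the study's criteria the count, 0, was 4 by DESeq2's Wald test, 4 by the likelihood ratio test, 4 without the filter, 1 with length-corrected offsets and 1 by the likelihood ratio test with them, and from 0 to 5 with single retinas left out. Without the minimum TPM or the minimum fold change it could only be 0, since no member passed the adjusted p in the quasi-likelihood test. The cause of these differences was not tested. The median log2 fold change ranged from 0.11 to 0.28 for ON bipolar genes, from 0.12 to 0.22 for OFF and cone bipolar genes and from 0.43 to 0.70 for horizontal cell genes over the leave-outs. The log2 ratio of mean TPM, an alternative chosen after seeing the data, gave medians of 0.25, 0.26 and 0.59.

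Single members were followed under 13 settings, all but the likelihood ratio test with length-corrected offsets and the TPM ratio (where *Sebox* and *Otx2* changed sign). Of these 416 values, 359 kept their direction and their side of the threshold, 44 kept the direction and passed it, and 13 changed sign, all in 8 members with small log2 fold changes. With length-corrected offsets *Sebox* was at 0.10, *Cabp2* at 0.03 and *Scgn* at 0.05, and with library size only *Bhlhe23* was at -0.01. Without single retinas, *Prkca* reached -0.07, *Bhlhe23* from -0.07 to 0.05, *Cabp2* from -0.21 to 0.01, *Irx5* from -0.15 to 0.23, *Irx6* from -0.06 to 0.13 and *Otx2* from -0.05 to 0.01. Values without control YR613 were -0.02 for *Bhlhe23*, -0.03 for *Irx5* and -0.06 for *Irx6*, and without *Yap* cKO YR714 -0.02 for *Irx6*. No paired analysis was possible because the groups share no replicate number. *Onecut1* rested on 18 to 73 fragments per retina.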
